A study of Mus musculus with 6 samples.

Results

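Cxcl1, Cxcl2, Cxcl3 and Cxcl5 are neutrophil-attracting CXC chemokine genes of the Cxcl cluster on mouse chromosome 5. They were examined here in bone marrow-derived macrophages (BMDMs) kept for 1 h with lipopolysaccharide (LPS) or PBS. They are 4 of the 21938 protein-coding genes of the annotation used. The regions described are all peaks within the gene bodies extended by 50 kb on each side. This gave 45 of the 142059 peaks in the 4 deposited lists, of which 22 were H3K4me1 peaks under LPS, 23 were H3K4me1 peaks under PBS and none was an H3K27ac peak. The study profiled wild-type C57BL/6 macrophages by CUT&RUN, in which an antibody directs a nuclease to chromatin and the released fragments are sequenced. H3K4me1 (monomethylation of lysine 4 on histone H3) marks enhancers, and H3K27ac (acetylation of lysine 27) marks active enhancers and promoters. There was 1 library for each antibody and treatment, grown from marrow in L929-conditioned medium, so no value has a replicate error and every difference is between single libraries. The number of mice behind a library is not given in the sources used here.

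The proteins encoded by these genes are small secreted ligands that act on the receptor CXCR2 and draw neutrophils into inflamed tissue. In macrophages the genes are classical early targets of Toll-like receptor 4, the LPS receptor, and of the transcription factor NF-κB. Their neighbours in the cluster are Ppbp and Pf4, which encode platelet chemokines, and Cxcl15, which encodes a lung chemokine.

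All 4 genes lie on the plus strand (GRCm38, GENCODE M21). Cxcl5 spans 90759360 to 90761624 and Cxcl3 90786103 to 90789600, with Ppbp and Pf4 between them. Cxcl1 spans 90891241 to 90893115 and Cxcl2 90903871 to 90905938, and no other protein-coding gene lies in the 10755 bp between these. The extended gene bodies merged into 2 windows. The Cxcl5 and Cxcl3 window is 130.2 kb long, the Cxcl1 and Cxcl2 window is 114.7 kb long, and 1640 bp separate them. The genes of a window share most of their peaks and are therefore not independent of each other.

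The promoters of 3 members are printed first because H3K4me1 peaks of different treatments lay on or beside the same short sequence in them. They are the bases before the start site in RefSeq (GRCm38), cut at the base before the earlier of the RefSeq and GENCODE starts. Capitals mark the NF-κB motif.
Cxcl1 (chr5:90890995-90891240, plus strand): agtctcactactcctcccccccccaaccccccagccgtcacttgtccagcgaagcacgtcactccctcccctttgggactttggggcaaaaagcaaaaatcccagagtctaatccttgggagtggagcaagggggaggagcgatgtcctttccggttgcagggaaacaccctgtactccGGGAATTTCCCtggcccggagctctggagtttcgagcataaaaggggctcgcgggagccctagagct
Cxcl2 (chr5:90903649-90903870, plus strand): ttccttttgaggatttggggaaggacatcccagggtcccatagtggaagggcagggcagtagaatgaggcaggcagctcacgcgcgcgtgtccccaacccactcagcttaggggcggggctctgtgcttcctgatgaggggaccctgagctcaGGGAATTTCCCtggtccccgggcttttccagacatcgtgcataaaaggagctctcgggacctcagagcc
Cxcl3 (chr5:90785851-90786100, plus strand): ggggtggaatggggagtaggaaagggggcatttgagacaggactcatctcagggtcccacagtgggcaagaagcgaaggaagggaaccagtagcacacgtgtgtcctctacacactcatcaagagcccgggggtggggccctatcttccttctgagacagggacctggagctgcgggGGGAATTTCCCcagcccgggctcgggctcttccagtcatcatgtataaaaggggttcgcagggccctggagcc
The promoter of Cxcl5 was not in the table used. Each of the 3 promoters held the same 11 capital letters, in which the NF-κB motif was matched on both strands with an offset of 1 base. On the plus strand the match began 71 bp upstream of the RefSeq start in Cxcl1, 97 bp upstream in Cxcl2 and 73 bp upstream in Cxcl3. The motif occurred on either strand in 2379 of 32817 promoters of 250 bases (7.25%). Cxcl1, Cxcl2 and Cxcl3 are close paralogs, so their promoters do not count as 3 independent sequences. TATAAA was found in the Cxcl3 promoter, 30 bp upstream of the start, and in 12.4% of all promoters, but not in those of Cxcl1 and Cxcl2. AP-1 (TGANTCA), PU.1 (GAGGAAG), C/EBP (TTGCNNAA), STAT (TTCNNNGAA) and IRF motifs, searched on both strands, were not present in these 3 windows, beside 6.75%, 10.6%, 9.57%, 7.01% and 2.97% of all promoters.

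The next 3 sequences are H3K4me1 peaks to which the results on single peaks return. The first is the strongest peak of the LPS list with no PBS counterpart, the second the strongest of the PBS list with no LPS counterpart, and the last is the LPS peak upstream of Cxcl5, which was in both lists. Capitals mark AP-1 in all 3 printed. They also mark C/EBP in the second, where it comes first. In the last they mark PU.1, which comes first and on the minus strand. The PBS peak upstream of Cxcl2, at 90902999 to 90903191, was also selected but is not printed. Within its limits it held none of the motifs searched. Most peaks of the windows, unlike the 3 printed, did not hold AP-1 in the sequence around the summit. It was there for 7 of 22 LPS peaks (31.8%) and 6 of 23 PBS peaks (26.1%), beside 14.0% and 13.5% of the whole lists.
LPS only, between Cxcl1 and Cxcl2 (chr5:90896910-90897153, plus strand): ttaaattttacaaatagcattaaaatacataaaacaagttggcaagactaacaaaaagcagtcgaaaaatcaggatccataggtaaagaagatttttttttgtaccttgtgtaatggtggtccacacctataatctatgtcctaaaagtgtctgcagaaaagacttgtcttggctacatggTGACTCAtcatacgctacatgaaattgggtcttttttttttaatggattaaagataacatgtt
PBS only, upstream of Cxcl1 (chr5:90881679-90881934, plus strand): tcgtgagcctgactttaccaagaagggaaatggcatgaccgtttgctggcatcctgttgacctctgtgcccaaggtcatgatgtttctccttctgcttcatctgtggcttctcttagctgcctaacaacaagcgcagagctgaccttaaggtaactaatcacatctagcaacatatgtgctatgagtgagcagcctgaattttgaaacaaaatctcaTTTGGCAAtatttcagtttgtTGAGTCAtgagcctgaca
Both lists, upstream of Cxcl5 (chr5:90758241-90758408, plus strand): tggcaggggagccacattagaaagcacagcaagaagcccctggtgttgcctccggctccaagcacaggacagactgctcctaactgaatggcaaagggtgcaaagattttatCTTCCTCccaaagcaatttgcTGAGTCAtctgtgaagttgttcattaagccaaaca

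The number of sequenced fragments was recovered from the peak values, since the lists give no totals. It came to about 6995840 for LPS H3K4me1, 6866430 for PBS H3K4me1, 5657540 for LPS H3K27ac and 7209110 for PBS H3K27ac, estimates that assume the fragment length given by the smallest peak. The fewest fragments at any called summit, the highest point of a peak, were 8 in each H3K4me1 list, 5 in the LPS and 8 in the PBS H3K27ac list. A gene without a peak is therefore one at which no summit passed the limit of the peak caller, not one shown to lack the mark. Macrophage marker genes had an H3K4me1 peak within 10 kb of the transcription start site (TSS) in 8 of 8 cases under LPS and 6 of 8 under PBS. For markers of other cells these counts under LPS and PBS were 3 and 2 of 6 for neutrophils, 3 and 1 of 5 for T cells, 3 and 2 of 4 for B cells, and 1 and 1 of 4 for fibroblasts. Of all protein-coding genes, 47.6% had such a peak under LPS and 41.0% under PBS.

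The surroundings of the 4 chemokine genes held more H3K4me1 peaks than those of the median gene under either treatment, and no H3K27ac peak. The LPS list had 22 H3K4me1 peaks covering 7.308 kb of the windows and the PBS list had 23 peaks covering 8.801 kb. This is 89.8 and 93.9 peaks per Mb, beside 26.8 and 23.8 per Mb over the genome. Every member had 11 LPS peaks within its own gene body and 50 kb on each side, where the median protein-coding gene had 4. Under PBS there were 13 peaks at Cxcl5, 12 at Cxcl3 and 10 at Cxcl1 and at Cxcl2, and the median gene had 3. These numbers were above 74.9% of genes for each member under LPS and above 77.6 to 84.9% under PBS. They were below the median of the 8 macrophage markers, which was 25 under LPS and 20 under PBS. At least 1 such peak was present for 74.1% of protein-coding genes under LPS and 70.7% under PBS, so its presence at all 4 members is near what most genes had. Summits lay outside annotated genes in 18 of 22 LPS and 18 of 23 PBS peaks. The share over the whole lists is not given here, so these counts are not read as particular to the windows.

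**Figure D1:**
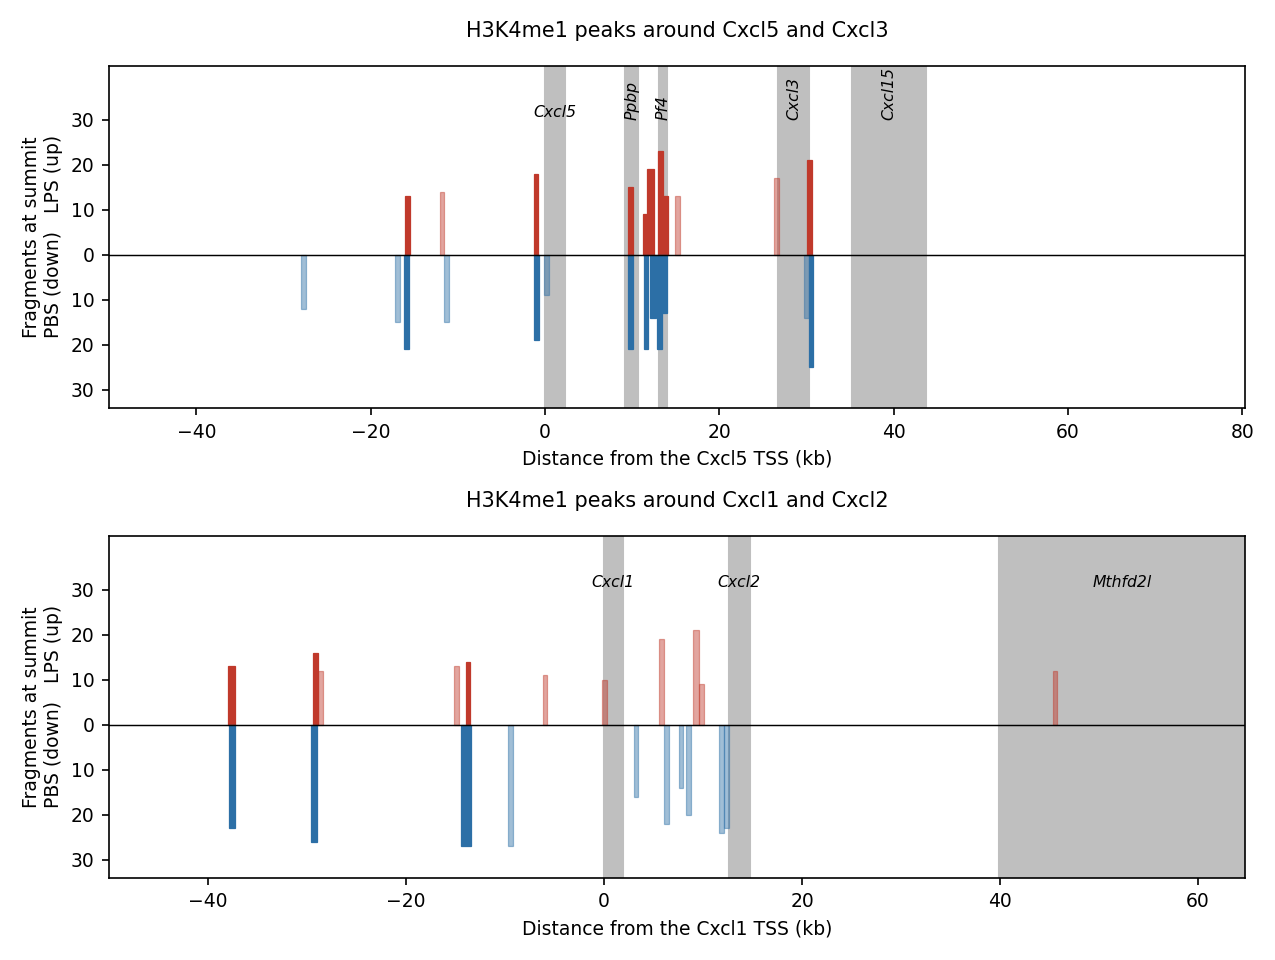
H3K4me1 peaks in the Cxcl5 and Cxcl3 window (top) and the Cxcl1 and Cxcl2 window (bottom). The x axis gives the distance in kb from the TSS of Cxcl5 or Cxcl1, bar height the fragments at the summit under LPS (red, upward) or PBS (blue, downward), full colour a peak overlapped by a peak of the other treatment and pale colour a peak that is not, and grey bands the protein-coding genes. Narrow peaks are drawn wider than they are. Most bars are full around Ppbp and Pf4, and all bars between Cxcl1 and Cxcl2 are pale.

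By peaks within 1 kb of the TSS, the members divided into LPS only, PBS only and both. In this interval an LPS H3K4me1 peak was found at Cxcl1, Cxcl3 and Cxcl5, and a PBS peak at Cxcl2 and Cxcl5. The TSS, which for all peak distances here is the GENCODE start, was covered only by the LPS peak at Cxcl1 and a PBS peak at Cxcl2. The RefSeq start, used for the printed promoters, was covered at Cxcl1 but not at Cxcl2. Over all protein-coding genes 24.1% had an LPS peak in this interval and 15.8% a PBS peak. H3K27ac peaks, present in it for 5.01% of genes under LPS and 0.0729% under PBS, were called at none of the 4. An H3K4me1 peak was there in the LPS list alone for 13.2% of genes, in the PBS list alone for 4.89% and in both for 10.9%.

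Cxcl1, which encodes the chemokine KC, had an LPS peak across its TSS, at 90891124 to 90891382. It began 117 bp upstream of the TSS, ended 141 bp downstream and contained the NF-κB motif printed above. It rested on 10 fragments at the summit (exact 95% Poisson interval 4.80 to 18.4, which covers counting error only), with 4.84-fold enrichment over control. Its -log10 q was 3.98, where q is the p-value corrected for multiple testing. With rank 54301 of 73049 by -log10 q it was among the weaker LPS peaks. The nearest PBS peak began 3132 bp downstream of the TSS, at 90894373 to 90894558, and had 16 fragments (9.15 to 26.0) at its summit.

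Cxcl2, which encodes the chemokine MIP-2, had the opposite arrangement. A PBS peak at 90903391 to 90903885 reached 14 bp past the GENCODE TSS and contained the NF-κB motif. It ended before the RefSeq start at 90903899. It had 23 fragments (14.6 to 34.5) at the summit and 3.32-fold enrichment. The local control level was about 3, where the background control level of that library was 0.278. On the scale of these control levels each fragment counted 0.533, so the 23 fragments cannot be set directly against 3. The peak had a -log10 q of 2.69 and rank 60453 of 64758. A stronger PBS peak lay 680 bp upstream of the TSS, at 90902999 to 90903191, with 24 fragments (15.4 to 35.7), 8.95-fold enrichment and -log10 q at 10.2. The nearest LPS peak was a weak one that ended 2697 bp upstream of the TSS, at 90901030 to 90901174, with 9 fragments and rank 72937 of 73049.

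Cxcl3, a further ligand of the same receptor, resembled Cxcl1. An LPS peak at 90785747 to 90786031 ended 72 bp upstream of the TSS, inside the NF-κB motif, which spans 90786028 to 90786038 on both strands together. It had 17 fragments (9.90 to 27.2), 6.52-fold enrichment and -log10 q at 5.82. No PBS peak lay within 3 kb of this TSS. The nearest one, at 90789275 to 90789433, was 3172 bp downstream, in an untranslated or non-coding exon of Cxcl3, with 14 fragments and a -log10 q of 2.81.

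Cxcl5, which encodes the chemokine LIX, was the only member with an H3K4me1 peak within 1 kb of the TSS under both treatments. The peaks upstream of it overlapped, at 90758241 to 90758408 under LPS and 90758219 to 90758484 under PBS, with 18 fragments (10.7 to 28.4) and 19 fragments (11.4 to 29.7). They ended 952 bp and 876 bp upstream of the TSS, so the 1 kb limit only just took them in. Their -log10 q was 6.54 and 10.4, at rank 28368 of 73049 and 8925 of 64758. The PBS list had a second, weak peak at 90759403 to 90759643, which began 43 bp past the TSS over a coding exon and had 9 fragments at its summit.

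**Figure D2:**
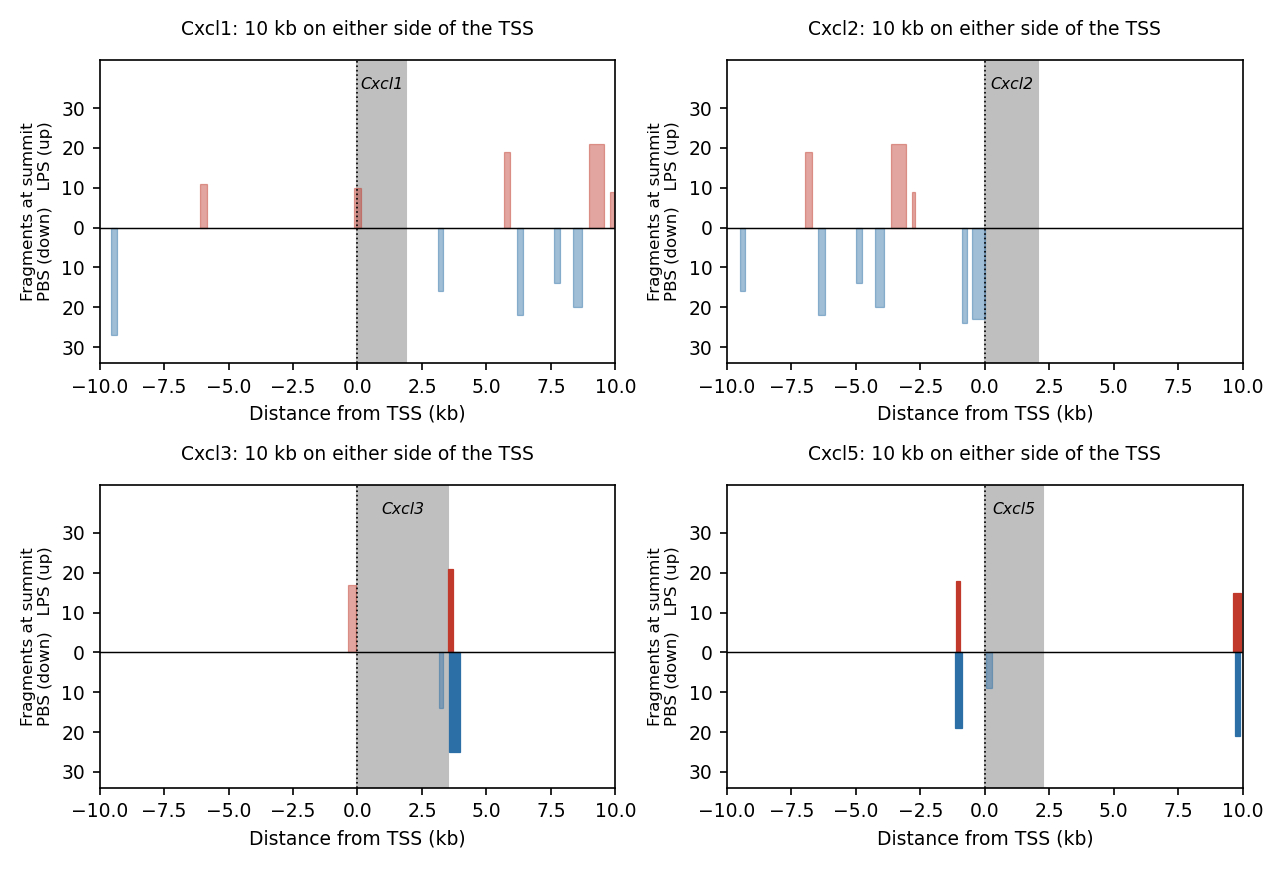
H3K4me1 peaks within 10 kb of each member's TSS. The x axis gives the distance from the TSS (dotted line) in kb and the y axis the fragments at the summit under LPS (red, upward) or PBS (blue, downward); pale bars have no overlapping peak under the other treatment and grey bands are gene bodies. The TSS, taken from GENCODE, is touched by a bar under LPS at Cxcl1 and under PBS at Cxcl2.

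LPS and PBS peaks coincided in larger shares around Cxcl5 and Cxcl3 than around Cxcl1 and Cxcl2, but the intervals of these shares overlap. Around Cxcl5 and Cxcl3, 8 of 11 LPS peaks (72.7%, 95% Wilson interval 43.4 to 90.3%) overlapped a PBS peak, and 8 of 13 PBS peaks (61.5%, 35.5 to 82.3%) overlapped an LPS peak. Around Cxcl1 and Cxcl2 these counts were 3 of 11 (27.3%, 9.75 to 56.6%) and 3 of 10 (30%, 10.8 to 60.3%). When both lists were limited to -log10 q values from 5 upward, the windows were closer, at 2 of 4 and 2 of 5 for LPS and 3 of 9 (33.3%) and 2 of 7 (28.6%) for PBS. In the whole lists 38.8% of LPS and 26.9% of PBS peaks had no counterpart, beside 11 of 22 and 12 of 23 in the windows together.

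In the whole LPS list the median -log10 q was 4.44 for peaks without a counterpart and 7.16 for those with one. The shares were therefore also set beside those of whole-list peaks of like -log10 q, a comparison chosen after these values were seen. Over both windows this share was 51.5% for LPS, beside 50% observed, and 74.6% for PBS, beside 47.8% observed. For LPS peaks around Cxcl1 and Cxcl2 this share was 49.2% and for PBS peaks 76.2%, above the 27.3% and 30% observed. Around Cxcl5 and Cxcl3 it was 53.9% for LPS, below the 72.7% observed, and 73.4% for PBS, above the 61.5% observed. Joined where they overlapped, the peaks of both lists formed 32 sites. Of these 9 were in both lists, 6 around Cxcl5 and Cxcl3 and 3 around Cxcl1 and Cxcl2, with 11 in the LPS list only and 12 in the PBS list only. The 3344 bp that both lists covered were 45.8% of the LPS and 38.0% of the PBS length.

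Close to Cxcl1 and Cxcl2 no LPS peak coincided with a PBS peak. Within 10 kb of the Cxcl1 TSS there were 5 LPS and 5 PBS peaks, and within 10 kb of the Cxcl2 TSS 3 LPS and 6 PBS peaks, several of them the same for both genes. None of them overlapped a peak of the other treatment. In the whole lists 38.8% of LPS and 26.9% of PBS peaks had no counterpart. How often all peaks near a TSS lack one over other genes is not given here. At Cxcl5 both LPS peaks and 2 of 3 PBS peaks overlapped a peak of the other treatment, and at Cxcl3 1 of 2 in either list.

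Some of the peaks without a counterpart were close neighbours. Of those in either window, 5 of 11 LPS peaks (45.5%) and 4 of 12 PBS peaks (33.3%) lay within 500 bp of the other list, beside 34.3% and 44.0% in the whole lists. Between Cxcl1 and Cxcl2, the LPS peak at 90896910 to 90897153 was separated by 264 bp from a PBS peak at 90897418 to 90897663, and the LPS peak at 90900221 to 90900807 by 260 bp from a PBS peak at 90899617 to 90899960. When query peaks were extended by 500 bp, 7 of 11 LPS peaks (63.6%) and 5 of 10 PBS peaks (50%) of the window met a peak of the other list, beside 74.5% and 84.9% in the whole lists. The median distance to the other list, for peaks without a counterpart in either window, was 1069 bp for LPS and 1061 bp for PBS. In the whole lists it was 1093 and 652 bp.

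The strongest LPS peak of the windows lay between Ppbp and Pf4, at 90771101 to 90771803, with 19 fragments (11.4 to 29.7) and a -log10 q of 8.45. It was followed by a peak 29.3 kb upstream of Cxcl1, at 90861831 to 90862309, with 16 fragments and a -log10 q of 7.75, and then by the LPS-only peak 5848 bp downstream of the Cxcl1 TSS whose sequence is printed above. The latter had 19 fragments, 7.57-fold enrichment and -log10 q at 7.51. The next were the shared peak upstream of Cxcl5 and an LPS-only peak 11979 bp upstream of Cxcl5, at 90747361 to 90747683, with a -log10 q of 6.51. The strongest LPS peak was above 73.3% of its list.

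The strongest PBS peak was the PBS-only peak 9393 bp upstream of the Cxcl1 TSS, whose sequence is printed above. It had 27 fragments (17.8 to 39.3) at the summit, 9.81-fold enrichment and -log10 q at 12.3, and was above 91.3% of its list, whereas the nearest LPS peak was 3209 bp away. The others were the PBS peak 29.2 kb upstream of Cxcl1 (26 fragments, -log10 q of 11.8), the shared peak upstream of Cxcl5, a peak 15.8 kb upstream of Cxcl5 (21 fragments, -log10 q of 10.3) and the peak 680 bp upstream of Cxcl2. The third strongest PBS peak with no counterpart, after those near Cxcl1 and Cxcl2, was at 90899617 to 90899960, 4077 bp upstream of the Cxcl2 TSS, with a -log10 q of 7.41. A -log10 q of at least 5 was reached by 9 of 22 LPS peaks (40.9%) and 16 of 23 PBS peaks (69.6%), beside 60.2% and 59.5% of the whole lists.

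At the 9 sites in both lists, the LPS library mostly had fewer fragments at the highest summit. In order along the chromosome the sites had 13, 18, 15, 19, 23, 21, 13, 16 and 14 fragments under LPS and 21, 19, 21, 21, 21, 25, 23, 26 and 27 under PBS. LPS was lower at 8 of 9 sites, the exception being the site over Pf4 with 23 and 21 fragments. Over all 39917 sites in both lists LPS was lower at 43.8% after scaling to the recovered totals. The median log2 ratio of LPS to PBS was -0.51 over the 9 sites and 0.07 over all sites. The 3 sites upstream of Cxcl1 had ratios of -0.85, -0.73 and -0.97, and 2.5% of all sites had a ratio under -0.74. The Poisson intervals of LPS and PBS overlapped at each of the 9 sites, but such overlap does not measure the error of a difference. The highest summits of both lists in a site can also lie at different positions. No difference was tested, and without replicates the treatment and the library cannot be told apart.

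**Figure D3:**
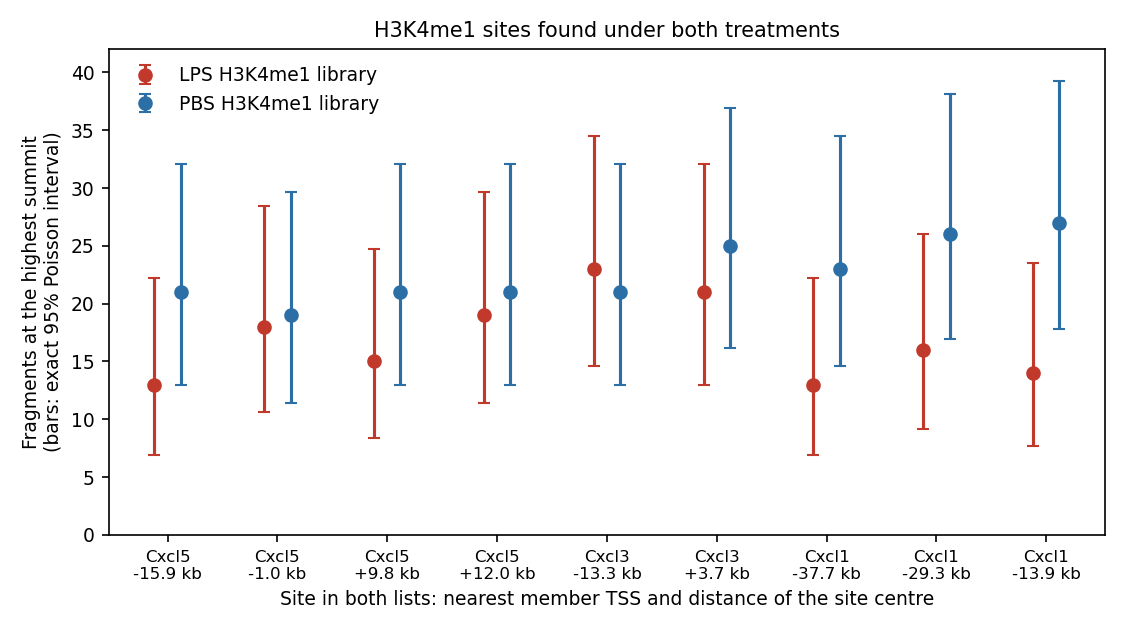
Fragments at the highest summit of the 9 H3K4me1 sites found under both treatments, in order along the chromosome. Points give the count in the LPS (red) and PBS (blue) library, bars the exact 95% Poisson interval, and the x axis names the nearest member TSS and the distance of the site's centre from it. The 3 sites upstream of Cxcl1 have 13, 16 and 14 fragments under LPS and 23, 26 and 27 under PBS.

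H3K27ac was not called at the cluster under either treatment, as was the case for most genes. Neither H3K27ac list had a peak within 50 kb of any of the 4 gene bodies. Of all protein-coding genes 27.7% had an LPS H3K27ac peak there and 0.588% a PBS one. Since the windows make up 2 stretches of the genome, the 4 genes count as 2 observations at most, and the absence of a peak is no result particular to them. The paper lists an LPS-responsive enhancer between Cxcl1 and Cxcl2, with both genes as its predicted targets. It was chosen from RNA at 1 h and from public data on H3K4me1, H3K27ac and the protein p300. The public data were taken before LPS and later after LPS. The absence described here therefore holds for these lists only. The nearest LPS H3K27ac peak was downstream of the cluster, at 91034017 to 91034289, in an untranslated or non-coding exon of Epgn, which encodes a ligand of the EGF receptor. It rested on 6 fragments (2.202 to 13.1), with 5.16-fold enrichment, -log10 q at 3.096 and rank 2602 of 4200. No H3K4me1 peak overlapped it. It lay 130 kb from the Cxcl2 TSS, 143 kb from Cxcl1, 248 kb from Cxcl3 and 275 kb from Cxcl5, and the median protein-coding gene was 184 kb from an LPS H3K27ac peak. The nearest one upstream, at 90366708 to 90366859, was 249 bp from the TSS of Ankrd17. In the PBS list the nearest H3K27ac peak was 26226 kb from Cxcl2. That list holds only 52 peaks, 4 of them on chromosome 5, and the median protein-coding gene was 13375 kb from one.

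Other genes of the pathway were compared by whether an LPS H3K27ac peak lay within 10 kb of the TSS, which was the case for 8.92% of protein-coding genes. None of the 4 members and none of Ppbp, Pf4 and Cxcl15 had one. Of 7 other CXC ligand genes, Cxcl10, which encodes an interferon-induced T cell chemokine, and Cxcl16, which encodes a membrane-bound chemokine, had 1 peak each. Of 8 chemokine receptor genes, Cxcr6, the receptor of CXCL16, had 2, and Cxcr2, the receptor of the members' products, had 0. Of 9 genes of neutrophil growth and recruitment, Csf3r, the receptor for granulocyte colony-stimulating factor, and Tnf had 2 each and Il1b had 1, while Csf3, Csf2, Il17ra, Icam1, Sele and Selp had none. Macrophage markers had one in 2 of 8 cases. No gene of these lists had a PBS H3K27ac peak in the interval, against 0.16% of all genes.

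**Figure D4:**
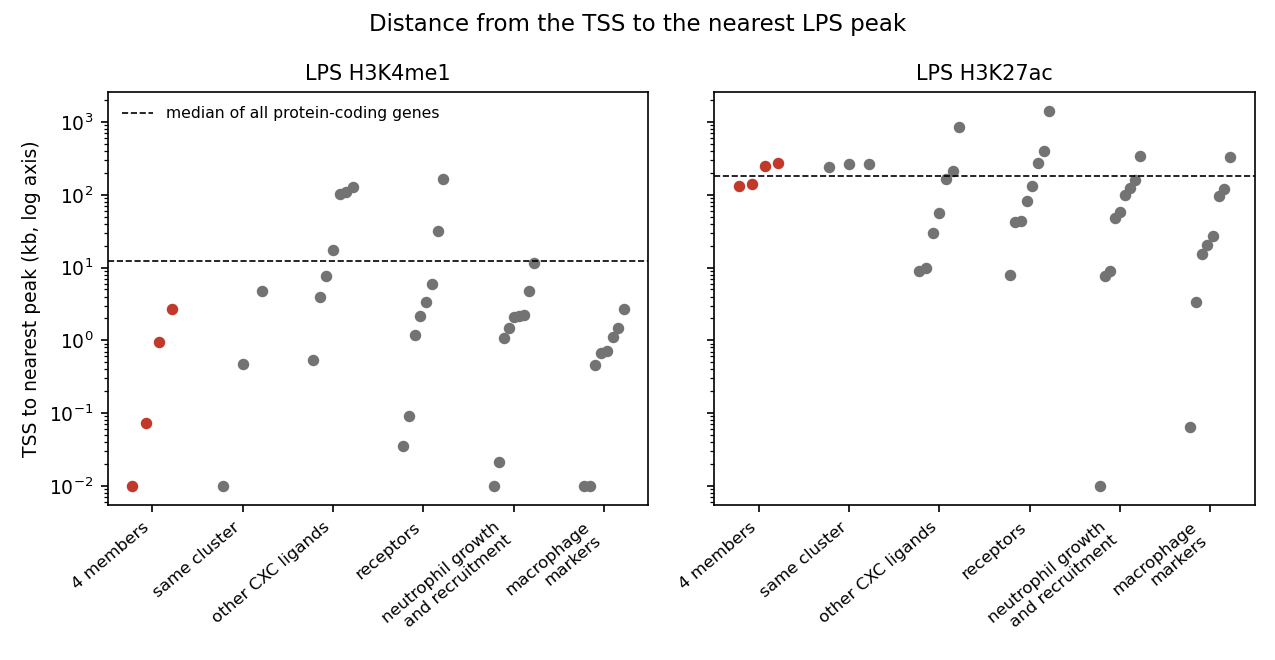
Distance in kb (log axis) from the TSS to the nearest LPS H3K4me1 (left) and LPS H3K27ac (right) peak for the members (red) and the other gene lists (grey), 1 point per gene. A TSS inside a peak is drawn at 0.01 kb, and the dashed line is the median of all protein-coding genes, 12.3 kb for H3K4me1 and 184 kb for H3K27ac. The 4 members lie between 0 and 2.70 kb from H3K4me1 and between 130 and 275 kb from H3K27ac.

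The same lists were compared for H3K4me1, which lay within 10 kb of the TSS for 47.6% of all protein-coding genes under LPS and 41.0% under PBS. An LPS peak lay within 10 kb of the TSS for all 4 members, all 3 of the other cluster genes, 3 of 7 other CXC ligands, 6 of 8 receptors and 8 of 9 genes of neutrophil growth and recruitment. A PBS peak did for all 4 members, all 3 other cluster genes, 4 of 7 ligands, 5 of 8 receptors and 9 of 9 genes of neutrophil growth and recruitment. Cxcl12, Cxcl13 and Cxcl14 had no H3K4me1 peak of either list within 50 kb of the gene body. Pf4 had 3 peaks within 1 kb of its TSS in either list, more than any member.

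The sequence of the peaks was described by the 300 bases centred on each summit. The NF-κB motif was in 4 of 22 LPS and 3 of 23 PBS windows, beside 6.36% and 6.07% of the whole lists. These LPS windows were those at the Cxcl1 and Cxcl3 promoters, at the start of Pf4 and 15.1 kb upstream of Cxcl1, and the PBS windows those at the Cxcl2 promoter, at the start of Pf4 and 11.3 kb upstream of Cxcl5. The AP-1 motif was in 7 LPS and 6 PBS windows, beside 14.0% and 13.5% of the lists, and C/EBP in 4 and 7, beside 13.3% and 13.7%. PU.1 was in 5 and 7, beside 18.5% and 19.5%, and TATAAA in 6 and 4, beside 14.3% and 14.6%. The STAT motif was in 2 and 3, beside 8.82% and 9.25%, and the IRF motif in 3 and 2, beside 4.04% and 4.22%. Each count is of few windows, and 7 motifs were searched. Median G+C content was 42.7% under LPS and 45.7% under PBS, where the lists had 47.7% and 47.3%.

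Cxcl1, Cxcl2 and Cxcl3 are close paralogs, and reads from identical stretches cannot be assigned to one of them. All sequences of 31 bases were unique in the genome in 41 of the 45 peaks and in the 3 promoters printed above. By the paper's methods the reads were longer than 31 bases, so uniqueness at 31 bases does not measure how many reads could be placed. The PBS peaks at 90742134 and 90881679 were unique at 98.8% and 98.7%. The LPS peak at 90747361, among the 5 strongest, was unique at 75.8% and 65.0% of its length was repeat sequence. The PBS peak at 90747956, which holds an NF-κB motif, was unique at 65.8% and lay wholly in repeat sequence. These are the peaks 272 bp apart upstream of Cxcl5 that were counted as without a counterpart, and the part of repeats in this was not tested.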

How the data were processed

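BMDMs from C57BL/6 mice were profiled by CUT&RUN for H3K4me1, H3K27ac and control IgG after 1 h with LPS or PBS, in 6 samples grouped by their labels. No IgG list was used. By the methods and the submitters' processing notes, the authors trimmed the read pairs, mapped these against GRCm38 using Bowtie2 (2.4.4), removed blacklisted regions and called peaks for each library, without pooling, with MACS2 (2.2.7.1) in the nf-core pipeline. The deposited lists give for each peak a fold enrichment (a ratio to the local control, with a pseudocount of 1), the -log10 of p and of q at the summit, and a score derived from q, which was not used.

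The members, gene lists and comparisons were chosen with earlier results of these data known. Named peaks were the nearest to each TSS, the 5 strongest of each H3K4me1 list and the 3 strongest without a counterpart. Peaks overlapped when they shared at least 1 bp (bedtools 2.31.1). Genes came from GENCODE M21 on the same build, and Cxcl11 was not among its protein-coding genes. Fragments at each summit and the control level were solved from fold enrichment and -log10 p with 1 scaling factor per library, which returned the deposited -log10 p within 0.002 for 100% of peaks in each list, rounded. This was tested on simulated data. Fragment totals used the smallest peak width as fragment length. Since each condition had a single library, no test was made and no p-value is given. Other thresholds, windows and definitions of overlap were tried.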

Additional observations from a re-analysis of the deposited data

How the results depend on the processing

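No paired analysis was possible because each condition had a single library. Of 80 alternative values, 68 stayed within 1.5 times the reported count or within the interval of the reported share. The H3K27ac values among these 68 were all 0, and most alternatives could not have changed them. The intervals of the shares are wide, so a value within them does not show a share to be stable. Requiring an overlap of 50% of both peaks gave 45.5% for LPS and 38.5% for PBS around Cxcl5 and Cxcl3, beside 72.7% and 61.5% reported. Around Cxcl1 and Cxcl2 it gave 18.2% and 20%, beside 27.3% and 30%. A -log10 q of at least 5 left 9 LPS H3K4me1 peaks covering 3704 bp, and in both lists 33.3% of PBS peaks around Cxcl5 and Cxcl3 with a counterpart, close to the 28.6% around Cxcl1 and Cxcl2. Requiring 5-fold enrichment left 14 LPS peaks, and merging peaks within 1000 bp left 15 in the PBS list. Gene bodies extended by 10 kb held 11 LPS and 14 PBS peaks covering 3100 and 4077 bp. Within 1 kb of the TSS 2 members had a PBS H3K4me1 peak, where all 4 had one within 10 kb. Extending LPS peaks by 500 bp moved their share with a PBS counterpart from 50% to 72.7% in both windows and from 27.3% to 63.6% around Cxcl1 and Cxcl2. H3K27ac counts stayed 0 in windows of 100 kb, the only alternative that could have changed them. The overlap of LPS H3K27ac with H3K4me1 gave no value, because no H3K27ac peak was in the windows. The short H3K27ac lists and the few fragments under each summit limit what the absence of a peak can show.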
